A study of Mus musculus with 16 samples.

Results

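The genes described here are 39 regulators and machinery genes of the cell cycle and DNA replication, chosen by name for their textbook roles. Of these, 38 had a probe set annotated to them alone, out of 18193 genes measured, and each was read from its brightest such probe set over all arrays. Ccnb1 was not analysed here. RNA came from pancreatic islets of adult mice in which beta cells can lose Insm1, the gene of a zinc finger protein that regulates transcription in endocrine cells. The 8 mutant animals were RIPcreER; Insm1flox/lacZ and the 8 controls were RIPcreER; Insm1flox/+, with 1 array per animal. RIPcreER is a tamoxifen-inducible Cre recombinase driven by the rat insulin promoter, and it was present in both groups. All animals, on a mixed C57BL/6, 129/ola and CBA/J background, received 25 mg of tamoxifen, released over 21 days, at 4 to 5 weeks of age. Islets were collected at 8 to 12 weeks. The floxed allele could therefore also be lost from control beta cells, which kept a wild-type allele, and the lacZ allele was present in all cells of the mutants and in no control. The series describes the controls as litter-matched, and replicate numbers are shared between the groups.

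Cells pass from G1 into S phase when cyclins D and E activate their kinases, the retinoblastoma proteins release E2F factors, and E2F targets such as the Mcm helicase and nucleotide enzymes are expressed. Genes for mitosis come on later, in G2, largely through CHR elements and CCAAT boxes bound by the DREAM, B-Myb, FoxM1 and NF-Y proteins. Adult beta cells divide rarely, so an islet sample holds few cycling cells, and these may be endocrine cells, other pancreatic cells or leukocytes.

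Promoters are shown for members whose signals varied together across the arrays, with 1 that did not. Each is the 250 bases before a RefSeq start site on GRCm38.p6, written 5′ to 3′ on the gene's strand, with motif matches in capitals. The motifs were the CHR (TTTGAA or TTCGAA), the E2F site (TTTCCCGC, TTTGGCGC, TTTCGCGC or TTTGCCGC) and the CCAAT box (CCAAT), each read on both strands, so that CCAAT also appears as ATTGG and TTTGAA as TTCAAA. Matches to different E2F letters can overlap, as in Mcm5 and Mcm6. Top2a, Cdk1 and Cdc20 are mitotic genes with CHR matches, Mcm5 and Mcm6 are helicase genes with E2F matches, and Cdk4 is a G1 kinase gene with no match.
Top2a, chr11:99024190-99024439, minus strand: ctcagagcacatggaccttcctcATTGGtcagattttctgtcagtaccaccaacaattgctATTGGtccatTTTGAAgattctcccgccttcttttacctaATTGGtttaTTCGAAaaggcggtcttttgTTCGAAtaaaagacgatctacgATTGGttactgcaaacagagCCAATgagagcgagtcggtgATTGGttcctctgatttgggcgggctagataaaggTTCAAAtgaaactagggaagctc
Cdk1, chr10:69352913-69353162, minus strand: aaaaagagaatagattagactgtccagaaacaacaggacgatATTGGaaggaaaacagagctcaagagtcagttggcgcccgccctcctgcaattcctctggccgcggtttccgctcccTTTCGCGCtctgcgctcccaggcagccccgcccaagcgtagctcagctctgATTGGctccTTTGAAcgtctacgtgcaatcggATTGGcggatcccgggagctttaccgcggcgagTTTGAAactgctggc
Cdc20, chr4:118437344-118437593, minus strand: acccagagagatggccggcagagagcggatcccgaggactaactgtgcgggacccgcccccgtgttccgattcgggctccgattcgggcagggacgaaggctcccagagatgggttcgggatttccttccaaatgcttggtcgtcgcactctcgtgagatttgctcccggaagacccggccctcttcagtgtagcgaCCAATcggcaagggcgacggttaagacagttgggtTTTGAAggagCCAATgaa
Mcm5, chr8:75109259-75109508, plus strand: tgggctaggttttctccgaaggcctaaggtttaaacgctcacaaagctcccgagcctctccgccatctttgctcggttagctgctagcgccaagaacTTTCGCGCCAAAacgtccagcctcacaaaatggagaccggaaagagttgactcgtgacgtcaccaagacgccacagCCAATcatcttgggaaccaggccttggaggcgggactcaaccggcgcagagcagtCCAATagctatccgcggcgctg
Mcm6, chr1:128359706-128359955, minus strand: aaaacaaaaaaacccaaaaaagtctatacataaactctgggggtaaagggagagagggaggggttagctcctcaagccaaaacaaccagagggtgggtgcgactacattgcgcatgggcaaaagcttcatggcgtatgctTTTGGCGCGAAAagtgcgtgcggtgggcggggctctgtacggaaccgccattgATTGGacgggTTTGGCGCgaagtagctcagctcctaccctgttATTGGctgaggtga
Cdk4, chr10:127063285-127063534, plus strand: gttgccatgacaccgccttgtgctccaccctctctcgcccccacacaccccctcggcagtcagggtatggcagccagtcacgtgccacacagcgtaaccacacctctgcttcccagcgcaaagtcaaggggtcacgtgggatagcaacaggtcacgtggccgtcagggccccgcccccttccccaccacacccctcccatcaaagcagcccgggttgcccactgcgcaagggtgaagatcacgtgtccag

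The same letters were counted in every promoter window of that length. RefSeq entries were matched by symbol for 33 of the 39 genes, in 36 windows. Foxm1, Ccne2, Mcm4, Kif20a, Ccna2 and Aurkb had no entry in the table used. A CCAAT box lay in 25 of the 36 windows (69.4%), against 33.8% of all 32851 windows. It lay in 15 of the 17 windows of mitotic genes (88.2%), in 8 of the 10 of replication genes (80.0%) and in 2 of the 9 of G1 cyclins, kinases and inhibitors (22.2%). CHR letters lay in 8 of the 17 mitotic windows (47.1%), those of Bub1b, Ccnb2, Cdc20, Cdk1, Kif11, Mki67, Top2a and Ube2c, against 17.1% of all windows. E2F letters lay in 3 of the 10 replication windows (30.0%), those of Mcm5, Mcm6 and Mcm7, against 1.86% of all. These counts describe sequence and were not set against the expression values by a test.

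Signals are the authors' log2 values, so a difference of 1 is a 2-fold change. The array medians lay between 6.29 and 6.35. Whether the Insm1 probes lie within the deleted part was not given, so Insm1 does not check the labels. Its signal ranged from 10.71 to 11.30 in the mutants and from 10.94 to 11.60 in the controls, and the difference of −0.25 ± 0.11 (SE, 8 arrays a group) did not pass the test (limma adjusted p = 0.182). Without pairs 1 to 3 it was 0.04 (adjusted p = 0.873). The beta-cell list (8 markers measured) had a mean of 12.55 to 12.87 in mutant and 13.14 to 13.29 in control arrays, so markers of the labelled tissue were bright. Markers of other cells were bright in some arrays too. The mean of 12 acinar markers, enzymes of the exocrine pancreas, ranged from 8.35 to 13.54 in mutants and from 11.58 to 13.96 in controls, and in 8 of 8 pairs the mutant had the lower value. Of these 12 markers, 0 were called lower in limma without the replicate block and 12 with it. The mean of 8 duct markers was also lower in the mutant in 8 of 8 pairs, with 1 of them called lower without the block and 3 with it. The mean of 7 pan-leukocyte markers reached 10.57 in mutant replicate 1, 9.81 in mutant replicate 3, 9.27 in control replicate 1 and 8.52 in mutant replicate 2. It stayed between 6.85 and 7.68 in the other 12 arrays. Results for the members are therefore also given without the arrays numbered 1 to 3. In bulk islet RNA, fewer cells of a type and less RNA per cell cannot be told apart.

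No member passed the test with genotype as the only term, and Mcm7, Mcm4 and Cdc20 were called higher in the mutant when arrays of the same number were fitted as pairs. Called genes, those with a Benjamini-Hochberg adjusted p under 0.05 over all genes in limma, numbered 0 of 38 members without the pairs and 1594 of 18193 genes (8.76%), of which 746 (4.1%) were higher and 848 (4.66%) lower in the mutant. No member had an unadjusted p under 0.05 either, and the lowest adjusted p was 0.282, that of Mcm7. The member differences, mutant minus control, had a median of 0.18 and ran from −0.12 for Cdk4 to 0.58 for Mcm7. They lay above 0 for 33 members and below 0 for 5, while over all genes the median was −0.01 and 48.1% lay above 0. The members share cells and arrays and are not independent, so this count is a description. Leaving out each array in turn, the members' median difference ran from 0.02 without mutant replicate 1 to 0.33 without control replicate 3, and the number called stayed at 0. Without pairs 1 to 3 the median was 0.04, 22 members lay above 0, and 0 were called against 4.55% of all genes.

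The members varied widely between arrays of 1 genotype. The within-group SD had a median of 0.63 over the members and 0.16 over all genes, and 35 of the 38 members lay above the median of all genes. The same arrays were high or low for most of them. Mutant replicate 1 was the highest of the 16 arrays for 27 members, and among the controls replicate 3 was highest for 23 and replicate 1 for 11. For the 20 mitotic genes and proliferation markers, the median deviation from each gene's control median was 1.84 in mutant replicate 1, 1.17 in control replicate 3, 1.0 in mutant replicate 3 and 0.56 in control replicate 1. It lay between −0.87 and 0.30 in the other arrays. For the 10 replication genes the order differed, with 1.80 in mutant replicate 1, 1.04 in mutant replicate 3, 0.78 in control replicate 1 and 0.20 in control replicate 3. Control replicate 3 was thus high for mitotic genes and much less so for replication genes.

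**Figure D1:**
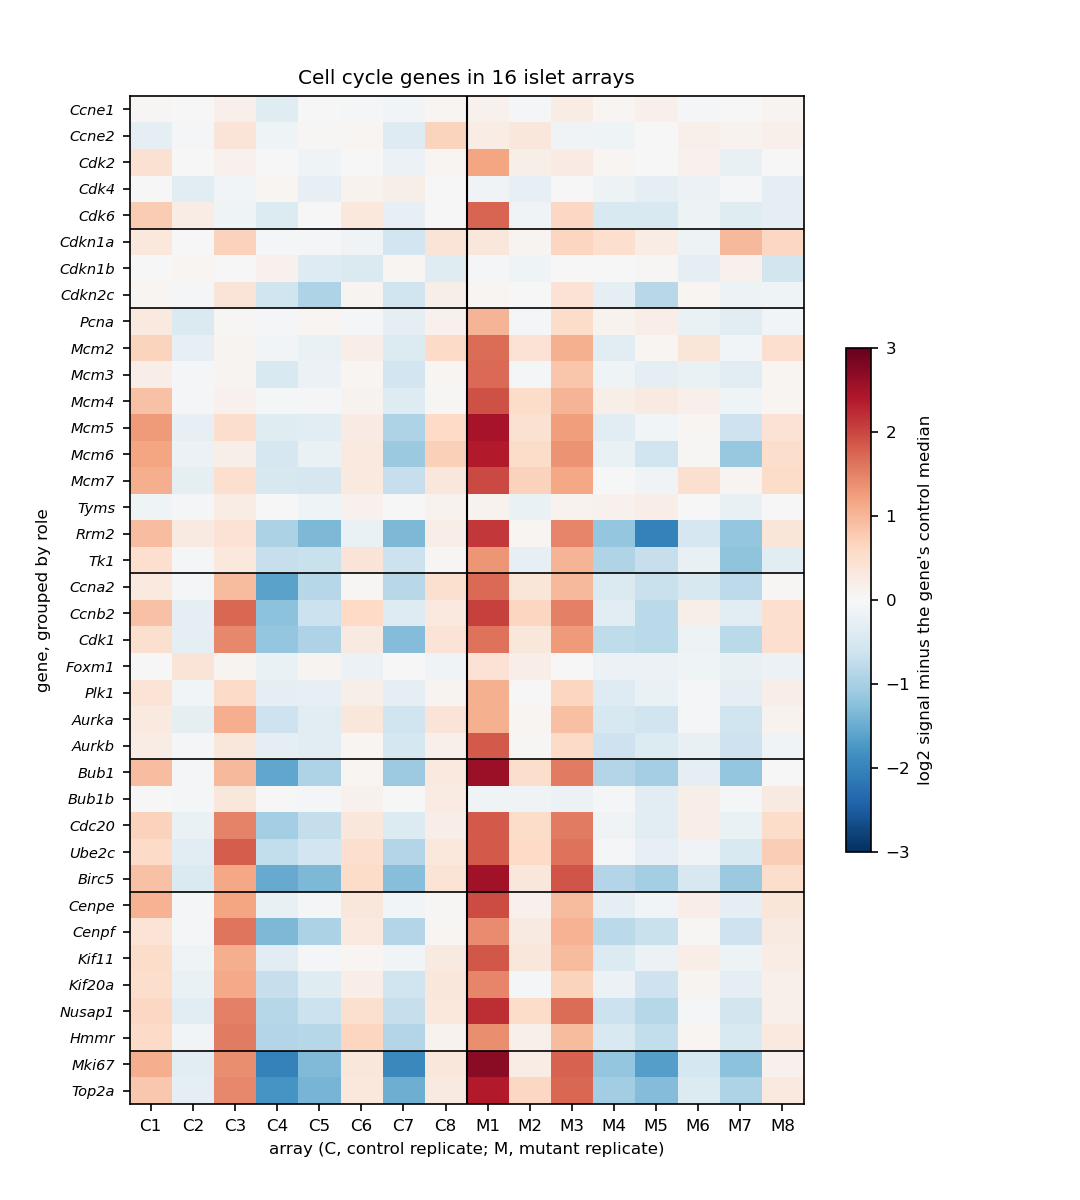
Log2 signal of the 38 members (rows, grouped by role) in the 16 arrays (columns; C, control replicate; M, mutant replicate), shown as the deviation from each gene's control median. Columns M1, M3, C1 and C3 are high for most mitotic genes, whereas Cdk4, Cdkn1b, Tyms and Bub1b change little across the arrays.

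Among the G1 to S genes, differences were small. Ccne1 and Ccne2 encode the E cyclins, which activate Cdk2 at the start of S phase. Ccne1 differed by 0.10 ± 0.07 (SE), higher in 7 of 8 pairs (limma adjusted p = 0.429), and Ccne2 by 0.06 ± 0.13 (adjusted p = 0.847). Cdk2, their kinase, had a lowest, median and highest signal of 6.5, 6.82 and 7.91 in mutants and 6.56, 6.73 and 7.19 in controls, and its highest value was that of mutant replicate 1. Cdk4, the cyclin D kinase needed for beta-cell growth after birth, ran from 9.25 through a median of 9.38 to 9.55 in mutants and from 9.2 through 9.54 to 9.71 in controls. The groups overlapped, the difference was −0.12 ± 0.07 (95% interval −0.27 to 0.03, adjusted p = 0.376), and the mutant was lower in 6 of 8 pairs. Cdk6, the other cyclin D kinase, had equal means of 5.84 in both groups, below the array medians, but reached 7.52 in mutant replicate 1.

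The 3 members that inhibit Cdks did not pass the test either. Cdkn1a, which encodes p21, a p53 target that arrests the cycle, ran from 9.42 through a median of 10 to 10.55 in mutants and from 9.01 through 9.58 to 10.26 in controls. It had the largest difference of the 3, at 0.32 ± 0.17 (95% interval −0.04 to 0.68, limma adjusted p = 0.296), with 6 of 8 pairs higher. Without pairs 1 to 3 it was 0.50 (95% interval 0.04 to 0.96, adjusted p = 0.236). The widest gap was in pair 7, at 1.54 (10.55 against 9.01), while the median over the 8 pairs was 0.16. The order of Cdkn1a across the arrays was not that of the mitotic genes, since mutant replicate 7 was the highest and mutant replicate 1 lay within the control range. Cdkn1b, which encodes p27 and holds resting cells in G1, had means of 11.04 ± 0.21 (SD) in mutants and 11.03 ± 0.23 in controls. Cdkn2c, which encodes the Cdk4 inhibitor p18, differed by 0.07 ± 0.19 (SE, adjusted p = 0.879).

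Of the 38 differences between the groups over all arrays, the largest was that of a replication gene, Mcm7 (0.58), whereas Cdkn1a was largest without pairs 1 to 3 (0.50, against 0.42 for Mcm7) and with the leukocyte mean as a covariate (0.29, against 0.27), and Top2a with the acinar mean (1.08, against 0.90). Mcm2 to Mcm7 encode the subunits of the replicative helicase that opens the DNA ahead of the polymerases. Mcm7 measured 11.11, 9.80, 10.28, 9.14, 9.02, 9.60, 9.2 and 9.68 in mutant replicates 1 to 8 and 10.20, 8.84, 9.62, 8.63, 8.61, 9.41, 8.43 and 9.47 in control replicates 1 to 8. The groups overlapped widely, yet in each pair of the same number the mutant was the higher, by 0.19 to 0.95. The difference was 0.58 ± 0.30 (95% interval −0.05 to 1.21, limma adjusted p = 0.282) between the groups, and 0.58 ± 0.09 with the replicate number as a block (adjusted p = 0.00131).

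Mcm4 behaved alike in its pairs. Its signals in mutant replicates 1 to 8 were 10.28, 8.94, 9.40, 8.56, 8.66, 8.54, 8.25 and 8.45, against 9.27, 8.34, 8.52, 8.33, 8.34, 8.49, 8.00 and 8.42 in control replicates 1 to 8. The mutant was higher in 8 of 8 pairs, by 0.03 to 1.01, and the pairs numbered 1 to 3 held the widest gaps. The difference of 0.42 ± 0.24 (95% interval −0.09 to 0.93, limma adjusted p = 0.351) became 0.42 ± 0.11 with the block (adjusted p = 0.0224). Without pairs 1 to 3, Mcm4 differed by 0.18 (adjusted p = 0.441 without the block). Both probe sets of Mcm4 passed with the block (differences of 0.42 and 0.46, adjusted p = 0.0278 and 0.0226 over probe sets). Of the 4 of Mcm7, 2 passed (0.58 and 0.54, adjusted p = 0.00181 and 0.00493), and the others had 0.36 and 0.21 (adjusted p = 0.0596 and 0.0988).

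The other helicase genes did not pass in either fit. Mcm2 differed by 0.38, Mcm5 by 0.36, Mcm6 by 0.32 and Mcm3 by 0.31, with SEs of 0.24 to 0.42 and limma adjusted p from 0.410 for Mcm2 to 0.740 for Mcm6. With the block, the adjusted p of Mcm2 was 0.0781. Mcm6 ran from 6.56 to 10.08 in mutants and from 6.58 to 8.88 in controls, and was higher in the mutant in 4 of 8 pairs. Pcna, the sliding clamp of the replicative polymerases, measured 11.00 to 12.37 in mutants and 10.91 to 11.64 in controls (difference 0.18 ± 0.16 SE). The enzymes of deoxynucleotide supply gave no common direction. Rrm2, the cycle-regulated subunit of ribonucleotide reductase, ranged from 5.68 to 9.83 in mutants and from 6.36 to 8.62 in controls, and differed by 0.15 ± 0.53. Tk1, thymidine kinase, differed by −0.06 ± 0.33 and was lower in 6 of 8 pairs. Tyms, thymidylate synthase, was read by 4 probe sets that stayed at or below 5.01 in every array, under the array medians, and its difference was 0.00 ± 0.07.

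**Figure D2:**
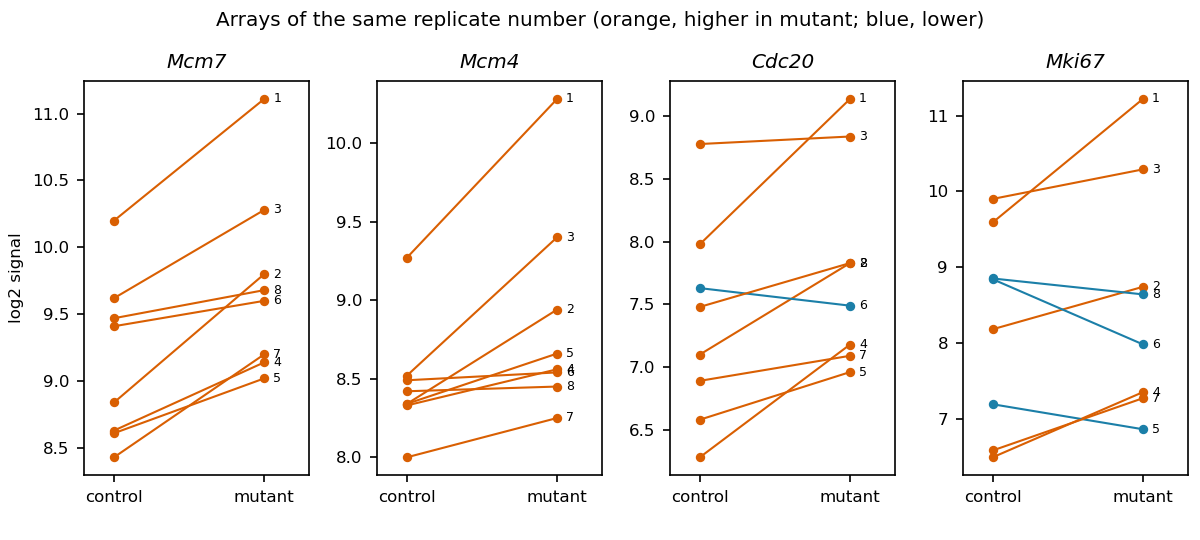
Log2 signals of Mcm7, Mcm4, Cdc20 and Mki67 in control and mutant arrays, with arrays of the same replicate number joined (orange, higher in the mutant; blue, lower). Mcm7 and Mcm4 are higher in the mutant in 8 of 8 pairs, Cdc20 in 7 and Mki67 in 5, while the groups overlap for each gene.

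Genes of G2 and mitosis followed the array pattern closely and the genotype little. Ccna2 and Ccnb2 encode cyclins A2 and B2, which activate Cdk1, the kinase that drives entry into mitosis. Cdk1 ran from 6.82 through a median of 7.73 to 9.26 in mutants and from 6.34 through 7.64 to 9.09 in controls, so the groups covered nearly the same range. It differed by 0.27 ± 0.43 (95% interval −0.64 to 1.19, limma adjusted p = 0.786). Ccnb2 differed by 0.31 ± 0.43 and Ccna2 by 0.28 ± 0.39, with mutant replicate 1 the highest array for both. The mitotic kinases Plk1, Aurka and Aurkb had differences of 0.09, 0.02 and 0.11, and Aurkb lay under the array medians in all 16 arrays. Foxm1, a transcription factor for mitotic genes, stayed between 7.26 and 7.91 across the arrays (difference −0.04 ± 0.10), a span far narrower than that of the kinases.

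Of the checkpoint and anaphase genes, Bub1, Cdc20, Ube2c and Birc5 followed the same array pattern. Cdc20, which activates the anaphase-promoting complex, measured 9.14, 7.83, 8.84, 7.18, 6.96, 7.49, 7.09 and 7.83 in mutant replicates 1 to 8 and 7.98, 7.10, 8.78, 6.28, 6.58, 7.63, 6.89 and 7.48 in control replicates 1 to 8. The groups overlapped, with mutants 1 and 3 and control 3 at the top, and the mutant was higher in 7 of 8 pairs. Between the groups it differed by 0.46 ± 0.37 (95% interval −0.31 to 1.23, limma adjusted p = 0.535), and with the block by 0.46 ± 0.13 (adjusted p = 0.0333). Its other 2 probe sets had differences of 0.31 and 0.03 and did not pass with the block (adjusted p = 0.134 and 0.858). Ube2c, the ubiquitin-conjugating enzyme of that complex, differed by 0.40 ± 0.40, and Birc5, which encodes survivin of the chromosomal passenger complex, by 0.41 ± 0.56. The spindle checkpoint kinase gene Bub1 ran from 4.26 to 8.01 in mutants and from 3.86 to 6.39 in controls (difference 0.34 ± 0.52). Bub1b, which encodes the checkpoint protein BubR1, depended on its probe set. The brightest ranged over 6.08 to 6.74 and differed by −0.12, while the other 2 ranged over 5.10 to 7.2 and 4.81 to 7.93 and differed by 0.24 and 0.27, with no call for any of them.

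Kinetochore and spindle genes lay above 0 in 6 of 6 cases, by 0.09 to 0.26, with limma adjusted p of 0.779 or more. The count rests on a few arrays, since 1 of 6 lay above 0 without mutant replicate 1 and 3 of 6 without pairs 1 to 3. With the leukocyte mean as a covariate 0 of 6 lay above 0, but 6 of 6 did when the replicate block was added to it. Cenpe and Cenpf encode kinetochore proteins, Kif11 and Kif20a are kinesins of the spindle and of cytokinesis, and Nusap1 and Hmmr bind spindle microtubules. Nusap1 had the largest difference, 0.26 ± 0.44 (SE), within ranges of 5.98 to 9.06 in mutants and 5.98 to 8.34 in controls. Cenpf and Hmmr were highest in control replicate 3, at 8.57 and 8.21, above mutant replicate 1 at 8.37 and 8.06 as the highest of the mutants.

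Mki67, which encodes the Ki-67 protein of cycling cells, varied more than any other member. It measured 11.22, 8.74, 10.29, 7.35, 6.86, 7.98, 7.27 and 8.64 in mutant replicates 1 to 8 and 9.59, 8.18, 9.90, 6.49, 7.19, 8.84, 6.58 and 8.85 in control replicates 1 to 8. Each group thus held high and low arrays, and 5 of 8 pairs were higher in the mutant. The means of 8.55 ± 1.53 (SD, n = 8) and 8.20 ± 1.32 differed by 0.34 ± 0.65 (SE, 95% interval −1.02 to 1.70, limma adjusted p = 0.826). With the block the SE was 0.22 and the adjusted p 0.355. Top2a, the topoisomerase that untangles replicated chromosomes, ran from 6.61 through a median of 7.85 to 10.27 in mutants and from 6.13 through 7.90 to 9.33 in controls, and differed by 0.43 ± 0.57 (95% interval −0.78 to 1.63, adjusted p = 0.741). Without the block, intervals of this width leave differences of more than 2-fold in either direction within range for Mki67. With the block, the 95% interval of Mki67 was −0.15 to 0.83.

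**Figure D3:**
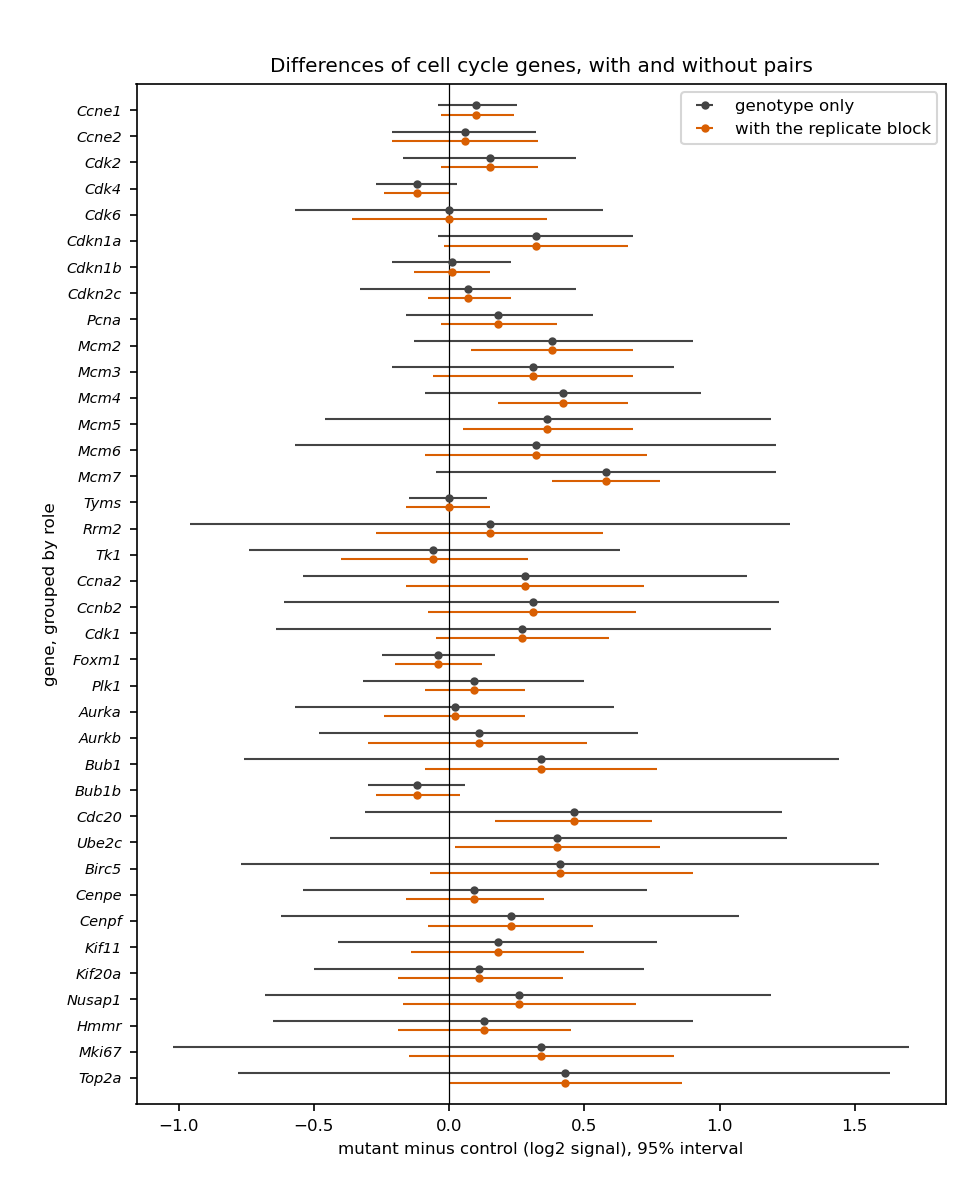
Mutant minus control difference in log2 signal for the 38 members, with 95% intervals from limma, for genotype alone (grey) and with the replicate number as a block (orange). Grey intervals cross 0 for all 38, the block narrows most of them, and Mcm7, Mcm4 and Cdc20 are the members that passed with the block after adjustment over all genes.

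How closely each member followed Mki67 over the 16 arrays is given as Pearson's r, as a description. The value was over 0.9 for 20 of the 37 others, highest at 0.99 for Birc5 and Top2a, and 0.98 for Cdk1 and Bub1. Among replication genes it was 0.94 for Rrm2, 0.92 for Mcm5 and Tk1, 0.91 for Mcm6 and Mcm7 and 0.68 for Pcna. It was under 0.5 for 6 members, namely Ccne2, Cdk4, Cdkn1a, Cdkn1b, Tyms and Bub1b. Cdk4 had 0.05 and Cdkn1b −0.15, and for Bub1b (0.18) and Tyms (0.25) the probe sets used varied little. The points share the array and the mixture of cells in each preparation.

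Arrays of the same number deviated together, so the replicate number was also fitted as a block. With it, 3 of 38 members were called, all higher in the mutant (Mcm7, Mcm4 and Cdc20), against 3200 of all genes (17.6%), of which 1433 (7.88%) were higher and 1767 (9.71%) lower. The share of members called was therefore not above that of all genes. The groups did not separate for any member (0 of 38), against 2.29% of all genes. Members higher in 8 of 8 pairs were Mcm4 and Mcm7, 2 of 38, against 5.79% of all genes, and 6 were higher in at least 7 pairs, against 13.0%. None was lower in 8 of 8 pairs (0 of 38), against 7.21% of all genes. Without pairs 1 to 3 and with the block, Mcm7 remained called (0.42, adjusted p = 0.0185) and was the only member called, against 10.8% of all genes.

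Leukocyte signal was high in some of the arrays in which mitotic genes were high. Ptprc, the defining leukocyte antigen CD45, measured 12.27 in mutant replicate 1, 11.05 in mutant replicate 3, 10.63 in control replicate 1 and 9.60 in mutant replicate 2, and from 6.83 to 8.38 in the other arrays. Control replicate 3, with Mki67 at 9.90, had Ptprc at 7.47 and a leukocyte mean of 7.19, within the range of the low arrays. Of the narrower lists, the B-cell mean (8 markers) spanned 5.60 to 10.24 in mutants and 5.57 to 8.70 in controls, and the T and NK cell mean (8 markers) 5.43 to 6.99 and 5.49 to 5.98. The macrophage and dendritic mean (15 markers) spanned 7.58 to 8.70 and 7.47 to 8.09. Each of these 3 means was highest in mutant replicates 1 and 3. No pan-leukocyte, B-cell or T and NK cell marker was called between the groups, and 1 macrophage and dendritic marker was called higher. With the block, 1 of the 8 B-cell markers was called higher, and the counts of the other 3 lists stayed as they were.

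Over the 16 arrays, Mki67 correlated with the leukocyte mean (Pearson's r = 0.73, permutation p = 0.00106, adjusted p = 0.00291 over 11 marker lists; Spearman's rho = 0.58, p = 0.0206, adjusted p = 0.0566). Without mutant replicates 1 and 3, the 2 arrays farthest from the median leukocyte mean, r was 0.42 (n = 14, permutation p = 0.143, adjusted p = 0.394), so this r rests largely on those arrays. Permutations over 16 or 14 arrays ignored the replicate numbers. Arrays of the same number deviated together, so these p-values can be too small. Within the 8 mutants r was 0.88 (exact permutation p = 0.00875, adjusted p = 0.03) and within the 8 controls 0.49 (exact permutation p = 0.225, adjusted p = 0.412). For the differences within the 8 pairs r was 0.60 (exact permutation p = 0.117, adjusted p = 0.242). The macrophage, B-cell and T and NK cell lists gave r of 0.77, 0.76 and 0.73 over the 16 arrays, and 0.53, 0.49 and 0.58 without the same 2. Their Spearman's rho over the 16 arrays was 0.76, 0.59 and 0.66 (permutation test, adjusted p = 0.0104, 0.0566 and 0.0339). The acinar mean gave r = 0.32 over the 16 arrays (permutation p = 0.23, adjusted p = 0.412), and none of the other 6 lists had an adjusted p under 0.05 there. Within the 8 pairs, the differences in Mki67 gave r = 0.76 with those in the acinar mean (exact permutation p = 0.029), −0.76 with the beta mean (exact permutation p = 0.0302) and −0.71 with the alpha mean (exact permutation p = 0.0471). Over the 11 lists their adjusted p were 0.166, 0.166 and 0.173, so none passed.

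With the leukocyte mean as a covariate, the median member difference was −0.07, with 10 members above 0 and 28 below, and 0 were called, against 8.77% of all genes. Adding the block to it put 29 members above 0 and 9 below. It gave 2 calls, Mcm7 higher (0.45, limma adjusted p = 0.00563) and Cdk4 lower (−0.19, adjusted p = 0.0384), against 12.6%. The acinar mean moved the values the other way. As a covariate it gave a median difference of 0.51 and 1 call, Mcm4 (0.79, adjusted p = 0.0331), against 11.4%. With the block as well, 8 members were called, all higher, against 3.69% of all genes called and 2.18% called higher. These were Mcm2, Mcm3, Mcm4, Mcm5, Mcm7, Birc5, Mki67 and Top2a, with differences of 0.88 to 1.40. The acinar mean was itself lower in the mutant in 8 of 8 pairs, so no pair compared the genotypes at equal acinar signal. These differences are therefore extrapolated beyond the pairs measured. The SE of Mki67 was 0.30 in this fit, against 0.22 with the block alone. The median member difference was thus below 0 with the leukocyte mean alone and above 0 in the other fits with marker means (0.08 with the leukocyte mean and the block, 0.61 with the acinar mean and the block). Mcm7 was called in all 4 fits with the block. The part of leukocytes or acinar cells in these differences was not tested beyond these fits.

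**Figure D4:**
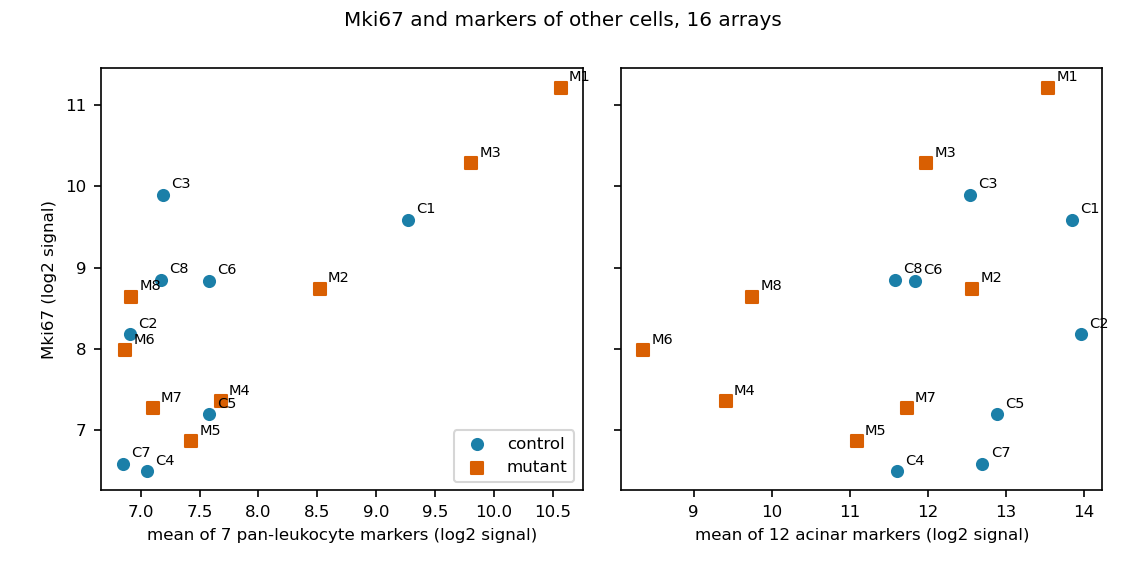
Log2 signal of Mki67 against the mean log2 signal of 7 pan-leukocyte markers (left) and of 12 acinar markers (right) in 8 control (C, circles) and 8 mutant (M, squares) arrays. M1, M3 and C1 are high for both Mki67 and leukocyte markers, whereas C3 is high for Mki67 but not for leukocyte markers. The acinar mean is also high in C1 and M1 (13.85 and 13.54), but it is highest in C2 (13.96), where Mki67 is 8.18.

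Of 113 other genes of the cell cycle that were listed by role, 109 were measured, and 5 of these were called, against 8.76% of all genes. Of these, 2 were higher and 3 lower in the mutant. The 109 genes had a median difference of 0.12, and 84 lay above 0. That majority rests on a few arrays, as the median was 0.01 with 58 above 0 without mutant replicate 1, and 0.01 with 56 above 0 without pairs 1 to 3. With the leukocyte mean as a covariate it was −0.02 with 42 above 0, and with the block as well 0.06 with 73 above 0. Ccnd1 encodes cyclin D1, which couples growth signals to Cdk4 and Cdk6. It measured 9.53, 9.57, 9.82, 10.75, 10.29, 10.45, 10.98 and 10.13 in mutant replicates 1 to 8 and 10.67, 10.89, 10.14, 11.40, 11.12, 11.23, 11.2 and 10.85 in control replicates 1 to 8. The groups overlapped, but the mutant was the lower in 8 of 8 pairs. It fell by 0.75 on the log2 scale (SE 0.21, 1.68-fold lower, limma adjusted p = 0.0364; 0.000862 with the block), and by 0.64 without pairs 1 to 3 (adjusted p = 0.0408). Ccnd1 ran against Mki67 in that its lowest arrays, mutant replicates 1 to 3, included the 2 with the highest Mki67. Fitting the leukocyte mean as a covariate ended its call (−0.59, adjusted p = 0.0597), and so did averaging its 3 probe sets (−0.66, adjusted p = 0.0601). It was called with the leukocyte mean and the block (−0.74, limma adjusted p = 0.00522) and with the acinar mean alone (−1.02, adjusted p = 0.00644). With the acinar mean and the block it was not called (−0.72, adjusted p = 0.109). Without pairs 1 to 3 and with the block it was called (−0.64, adjusted p = 0.00259). With genotype as the only term, the call was also lost without any 1 of mutant replicates 1, 2, 3, 5 or 8 or control replicates 2, 4, 5, 6, 7 or 8 (adjusted p from 0.0501 to 0.0753). The other D cyclins did not pass on their brightest probe sets. Ccnd2, the main D cyclin of adult beta cells, differed by −0.14 ± 0.10 (adjusted p = 0.468) and Ccnd3 by −0.07 ± 0.07 (adjusted p = 0.599). Of the 7 probe sets of Ccnd2, another was as bright (median 13.59, against 13.56) and differed by −0.24. It was lower in 8 of 8 pairs and passed with the block (limma adjusted p = 0.0134 over probe sets), but not without it (0.155). The rest of the Ccnd2 probe sets did not pass in either fit.

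Of the 5 Cdk inhibitors outside the members, 1 rose, 1 fell and 3 did not pass (Cdkn2a −0.02, Cdkn2d 0.05 and Cdkn3 0.16). Cdkn2a stayed at 4.33 to 4.67 and Cdkn3 at 4.81 to 6.10, under the array medians, where differences can be compressed. Cdkn1c, the imprinted gene of p57, measured 7.27, 8.03, 7.49, 7.60, 8.09, 7.70, 8.10 and 7.22 in mutant replicates 1 to 8, and 6.93 through a median of 7.08 to 7.28 in controls. It rose by 0.58 ± 0.12 (SE, 1.5-fold, limma adjusted p = 0.00609), was higher in 8 of 8 pairs, and overlapped the controls through mutant replicates 1 and 8. Cdkn2b, which encodes the Cdk4 and Cdk6 inhibitor p15, ran from 7.44 through 7.65 to 8.02 in mutants and from 7.94 through 8.13 to 8.30 in controls. It fell by 0.43 (SE 0.09, 1.34-fold lower, adjusted p = 0.005) and was lower in 8 of 8 pairs. Without pairs 1 to 3 it passed with the block only (−0.37, limma adjusted p = 0.0116, against 0.0877 without the block).

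Among the replication genes outside the members, Rpa2, a subunit of the protein that coats single-stranded DNA, rose by 0.49 ± 0.12 (SE, 1.4-fold, limma adjusted p = 0.0127). It ran from 7.31 through 7.46 to 8.08 in mutants and from 6.78 through 7.09 to 7.27 in controls, so the groups did not overlap. The other Rpa2 probe set differed by 0.46 and passed over probe sets with the block only (limma adjusted p = 0.0142, against 0.0553 without it). Gins3, a subunit of the GINS complex that joins the Mcm helicase, fell by 0.26 (SE 0.08, adjusted p = 0.0457), with 7 of 8 pairs lower. With adjustment over probe sets and no block, neither Gins3 probe set passed (−0.26 and −0.16, limma adjusted p = 0.0546 and 0.0924). The Gins3 call was lost without any 1 of mutant replicates 2, 3, 6 or 7 or control replicates 2 to 8 (adjusted p from 0.0525 to 0.0912). It was also lost without pairs 1 to 3 (−0.31, adjusted p = 0.0756) and beside the leukocyte mean (−0.25, adjusted p = 0.0812), and that of Rpa2 without those pairs when the block was fitted (0.32, adjusted p = 0.0538). With the block, 15 of the 109 genes were called, 11 higher and 4 lower, against 17.6% of all genes. The 10 added were Tfdp2, Myc, Gins4, Pole, Rfc3, Rrm1, Dut, Wee1 and Ncaph, higher by 0.21 to 0.64, and Spc25, lower by 0.44. They are named because they passed there, after their values were seen.

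**Figure D5:**
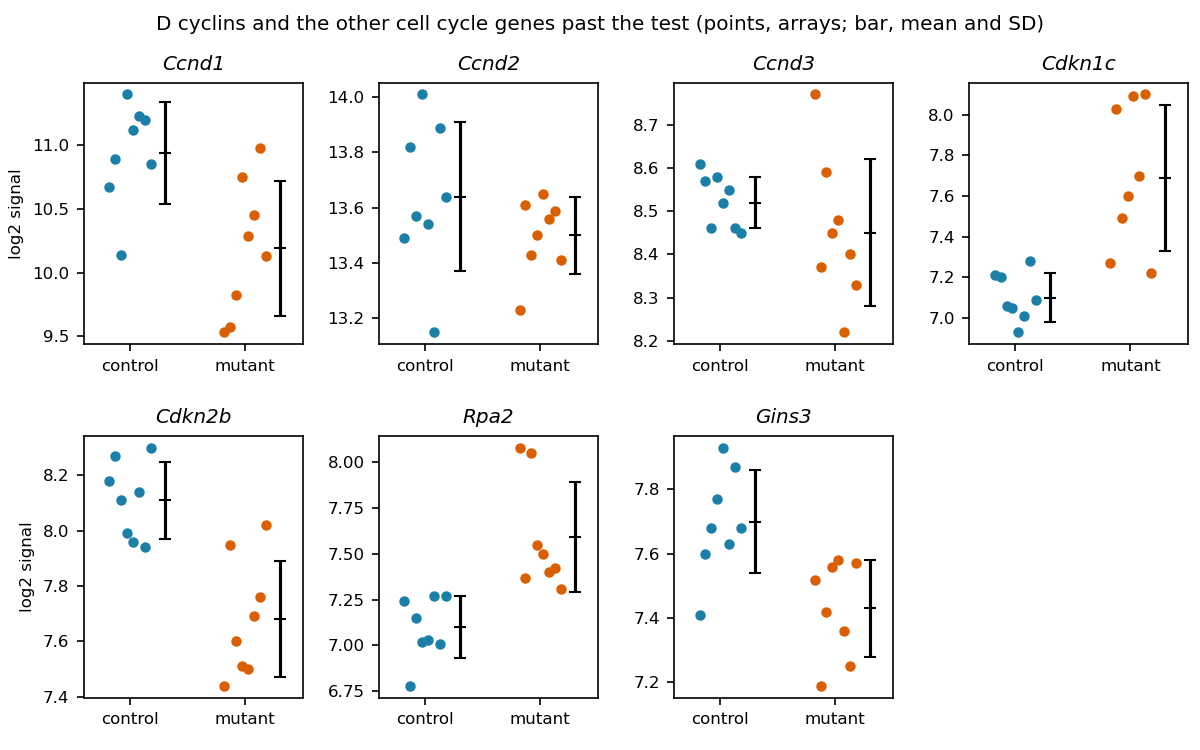
Log2 signal per array (points) with the mean and SD of 8 arrays (bars) for the 3 D cyclins and the other called cell cycle genes, in control (blue) and mutant (orange) islets; each panel has its own scale, which does not start at 0. Ccnd1, Cdkn2b and Gins3 are lower and Cdkn1c and Rpa2 higher in the mutant, while Ccnd2 and Ccnd3 did not pass the test.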

How the data were processed

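Total RNA from islets of 16 animals was amplified, biotin-labelled and hybridised to Affymetrix mouse expression arrays, per the labels' protocols. Each probe set has 1 value per array, a log2 signal as deposited by the authors. How they corrected, summarised and normalised it is not given in the sources used here. Its log base was taken from the values (highest 15.39). Of 45101 probe sets, 34945 named 1 gene, giving 18193 genes, and the brightest probe set stood for each. Dim genes were kept, and 12 of the 38 members had a mean below the lowest array median, where differences can be compressed. Some of these still varied widely, such as Bub1, from 3.86 to 8.01.

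The test was two-sided, by lmFit and trended eBayes of limma 3.58.1 (R 4.3.3), on genotype alone, with Benjamini-Hochberg adjustment over all genes. Genes were called at an adjusted p under 0.05. Nothing in the labels says that same-numbered animals were littermates. Yet same-numbered arrays deviated alike from their group means in 8 of 8 pairs (correlations of 0.24 to 0.73, median 0.47, against −0.1 for other numbers), so the numbers were taken to pair the arrays. Correlations used permutation tests, exact within groups and for pair differences, and otherwise with 100000 resamples that did not keep the pairs together. The number of arrays limits the precision.

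All measured members are accounted for. Of the other cell cycle genes, those named by rule are up to 8 called genes with the largest differences and the D cyclins. The 3 uncalled Cdk inhibitors were added after their values were seen. So were the 10 genes called with the replicate block but not with genotype as the only term over all arrays. The members, lists and alternatives were chosen with earlier results of these data known. On simulated data for this comparison (18193 genes), 84 of 100 genes changed 1.5-fold and 99 of 100 changed 3-fold were recovered, and 6.6% of the calls were genes not changed. Those genes were drawn from all genes, with a median within-group SD of 0.16, so these rates do not hold for the members, whose median was 0.63. Promoters came from RefSeq on GRCm38.p6.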

Additional observations from a re-analysis of the deposited data

Results flagged for a closer look

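Among 90 sets of 8 values, 3 had an array that stood apart from the others of its group (a gap to the next value of over 0.526 of the group's range), and chance alone gives about 5% of such sets. Cdk2 measured 7.91 in mutant replicate 1, 0.94 above the next mutant. Mcm4 measured 9.27 in control replicate 1, 0.75 above the next control. Foxm1 measured 7.86 in control replicate 2, 0.3 above the next control.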

How the results depend on the processing

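Over 30 alternatives and 45 genes, 1289 of 1338 values kept their direction or lack of a call, 34 lost a call, 15 gained 1 and 0 called values changed sign, and 28 members had no call in any alternative. Sign changes of values that were called in neither fit were left out of that 0. The number of all genes called was 3200 with the replicate block, 671 with the acinar mean and the block, 828 without pairs 1 to 3, and 1324 to 1645 with each array left out. Members called numbered 3 with the replicate block, 2 with the leukocyte mean and the block, 1 with the acinar mean, 8 with the acinar mean and the block, 1 without pairs 1 to 3 with the block, and 0 to 0 with each array left out. Other cell cycle genes called numbered 15, 10, 9, 16 and 10 in the same 5 settings, 3 with the leukocyte mean alone, and 3 to 8 with each array left out (3 without mutant replicate 2 or any 1 of control replicates 2, 4, 5, 6 or 8, and 8 without control replicate 1). Without pairs 1 to 3 there were fewer arrays, and the cause of the other shifts was not tested. Apart from these, the 12 acinar markers, the duct markers and 1 B-cell marker, the block changed no call of a gene named in the text, as read from its brightest probe set. Called genes outside the members lost their call with the acinar mean and the block for Ccnd1 (−0.72, adjusted p = 0.109), Cdkn1c (0.40, adjusted p = 0.377), Cdkn2b (−0.48, adjusted p = 0.0649) and Gins3 (−0.22, adjusted p = 0.472). Signals near background limit what could be seen for dim members such as Tyms and Aurkb.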
